A study of Homo sapiens with 6 samples.

Results

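Ionotropic glutamate receptor subunits and the auxiliary subunit CACNG2 were measured by RNA-seq in the SH-SY5Y line, which grew from a human neuroblastoma and resembles immature sympathetic neurons. The set holds 10 genes named by symbol: GRIN1, GRIN2A, GRIN2D and GRIN3A of the NMDA class, GRIA2 and GRIA4 of the AMPA class, GRIK2, GRIK3 and GRIK5 of the kainate class, and CACNG2. Of these, 8 had a row in the deposited gene table, which held 20668 genes once repeated rows were removed. The set was selected on the difference of its counts between the 2 genotypes, so those values are a description and no p-value is attached to a member. There were 3 libraries from cells carrying a CRISPR/Cas9 knockout of DNAJC12, a gene for a J-domain co-chaperone (DNAJC12-KO), and 3 libraries from wild-type (WT) cells, none of them treated. The series description names invasion of these cells as the property under study. The labels do not say whether the knockout is 1 clone, nor whether the 3 libraries of a genotype came from separate cultures. For other genes a p-value is thus set by the spread among libraries that may differ only technically.

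Ionotropic glutamate receptors are channels of assembled subunits that open when glutamate binds and carry fast excitatory signals in the brain. NMDA receptors need GRIN1 together with GRIN2 or GRIN3 subunits, AMPA receptors are built from GRIA subunits, and kainate receptors from GRIK subunits, of which GRIK5 reaches the surface only beside a subunit such as GRIK2. CACNG2, also called stargazin, is a transmembrane protein that brings AMPA receptors to the cell surface and tethers them to synaptic scaffolds. In the pore loop of each subunit a single residue sets much of the calcium permeability, and in GRIA2, GRIK2 and GRIK1 the RNA at that codon can be edited from glutamine to arginine.

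The pore-loop codon is shown for the 7 subunits that had counts, because it is the residue by which these channels differ in ion flow. Each line gives 30 coding bases of the GENCODE 29 reference transcript, 5′ to 3′, with capitals marking the codon at the glutamine/arginine position of AMPA and kainate subunits or the asparagine position of NMDA subunits:
GRIN1: tggggcgtcctgctcAACtccggcatcggg
GRIN2D: tgggccctggtgttcAATaattcggtgccc
GRIA2: ttgggtgcctttatgCAGcaaggatgcgat
GRIA4: ctgggtgcttttatgCAGcaaggatgtgac
GRIK2: gttggagctctcatgCAGcaaggttctgag
GRIK3: atgggatccctgatgCAGcaagggtctgag
GRIK5: gtggggggcttcatgCAGcagggctcggag
The AMPA and kainate subunits all carried the glutamine codon CAG in the reference, and the NMDA subunits an asparagine codon. GRIA2 and GRIA4 shared 26 of the 30 bases and GRIK2 and GRIK3 shared 24, while GRIA2 and GRIN2D shared 7. Counts per gene hold no base calls, so the edited share of GRIA2 or GRIK2 RNA was not measured here.

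Of the 8 members with a row, 5 had all 3 DNAJC12-KO values above all 3 WT values, namely GRIN1, GRIA2, GRIK2, GRIK3 and CACNG2. In 2, GRIN2D and GRIA4, all 3 DNAJC12-KO values lay below, and in GRIK5 the groups overlapped. Of all 20668 genes, 19.6% lay wholly above and 17.3% wholly below in this sense. The members were chosen with this contrast known, so nothing is read from their counts. In 16403 genes that passed a filter on low counts, edgeR's quasi-likelihood test with Benjamini-Hochberg adjustment called 26.0% at an adjusted p under 0.05, with 14.5% higher and 11.5% lower in DNAJC12-KO. That was 2383 higher and 1887 lower genes with TMM scaling, and 2055 higher and 2438 lower with library size alone; without DNAJC12-KO replicate 3, 1208 were lower. The filter passed 7 members, all but GRIK3, GRIN2A and GRIN3A; 3 of them, GRIN1, GRIA2 and CACNG2, passed through their DNAJC12-KO libraries alone and so had to differ. Values below are counts, or CPM, counts scaled to the library total after TMM adjustment, and fold changes are log2 values of DNAJC12-KO over WT ± SE from the same fit.

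**Figure D1:**
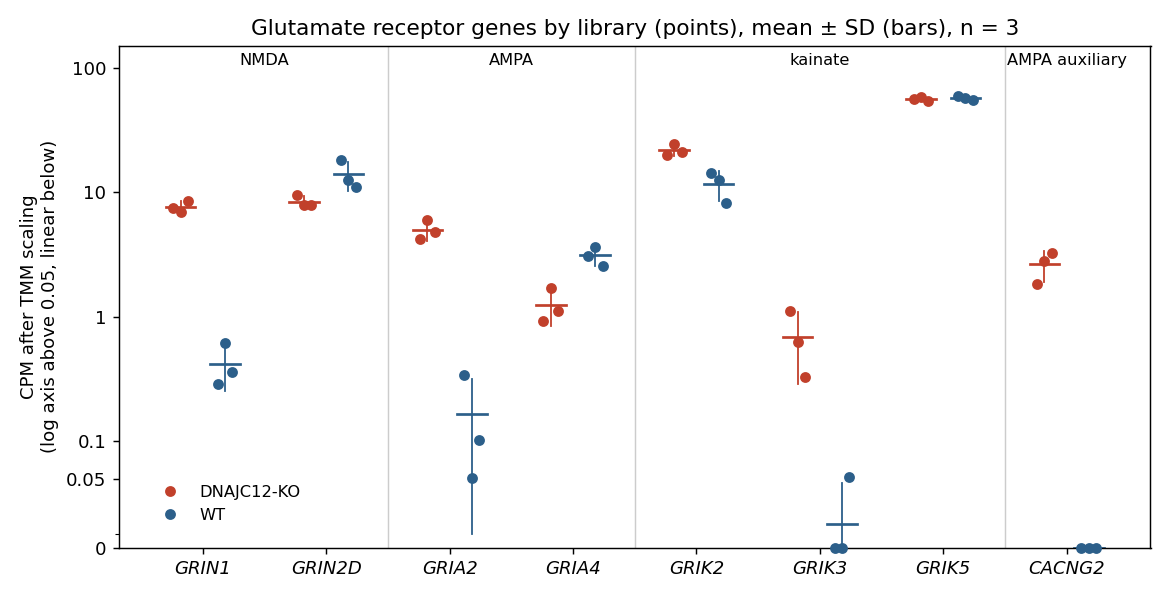
CPM after TMM scaling of the members with a row in each of the 3 DNAJC12-KO and 3 WT libraries, on an axis that is logarithmic above 0.05 CPM and linear below, with bars for the mean ± SD. DNAJC12-KO points lie above all WT points for GRIN1, GRIA2, GRIK2, GRIK3 and CACNG2, below them for GRIN2D and GRIA4, and among them for GRIK5.

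GRIN1 encodes the glycine-binding subunit that every NMDA receptor contains (ENSG00000176884, chr9:137139154-137168756 in GRCh38.p14). It had 146, 143 and 183 counts in the DNAJC12-KO libraries, against 6, 12 and 7 in the WT libraries. The gene was near the bottom of detection in WT and well above it in DNAJC12-KO, with no overlap. Its mean level was 7.62 ± 0.840 CPM in DNAJC12-KO and 0.419 ± 0.168 CPM in WT (SD, n = 3 each), a log2 fold change of 4.17 ± 0.29. The ratio of summed counts, scaled for depth, was 18.3 with an exact 95% interval of 12.2 to 28.6. In bulk RNA, more cells with the transcript and more transcript per cell cannot be told apart. The reads assigned to GRIN1 were spread over 8 of its 13 GENCODE 29 transcripts and the assignment differed between replicates: a single one of them was given 46.9, 90.8 and 0 reads in the 3 DNAJC12-KO libraries. No single GRIN1 isoform is therefore reported as the source of the difference.

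GRIN2D, a glutamate-binding NMDA subunit typical of early development, went the other way (ENSG00000105464, chr19:48393668-48444931). Its counts were 185, 164 and 169 in DNAJC12-KO libraries and 374, 246 and 217 in WT libraries. Every DNAJC12-KO value was lower, and WT replicate 1 stood above the other WT libraries. The means were 8.40 ± 0.884 CPM in DNAJC12-KO and 13.9 ± 3.71 CPM in WT (SD, n = 3 each), a log2 fold change of -0.73 ± 0.18. The gene overlaps KDELR1, and no source used here gives the strand setting of the counting. GRIN2A, a subunit that becomes common in mature neurons, and GRIN3A, a subunit that lowers calcium permeability, had no row in the gene table. All 15 GENCODE 29 transcripts of GRIN2A and both transcripts of GRIN3A were listed at 0 in all 6 libraries.

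The makeup of the NMDA transcripts differed between genotypes without overlap, while their summed level overlapped. Levels of different genes are compared per length, as CPM per kilobase of the longest GENCODE 29 protein-coding transcript. On that scale GRIN1 made up 39.2%, 44.2% and 48.3% of the summed GRIN transcripts in DNAJC12-KO libraries, against 1.47%, 4.37% and 2.95% in WT libraries. The GRIN2D share was 50.2%, 51.2% and 45.1% in DNAJC12-KO and 92.7%, 90.6% and 92.3% in WT. The summed level of the class was 3.69, 3.03 and 3.43 CPM per kilobase in DNAJC12-KO and 3.84, 2.71 and 2.36 in WT, with overlapping ranges. Within a library, GRIN1 stood at 0.781, 0.862 and 1.07 times the GRIN2D level per kilobase in DNAJC12-KO and at 0.0159, 0.0482 and 0.0319 times in WT. Such a ratio does not depend on the scaling between libraries.

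**Figure D2:**
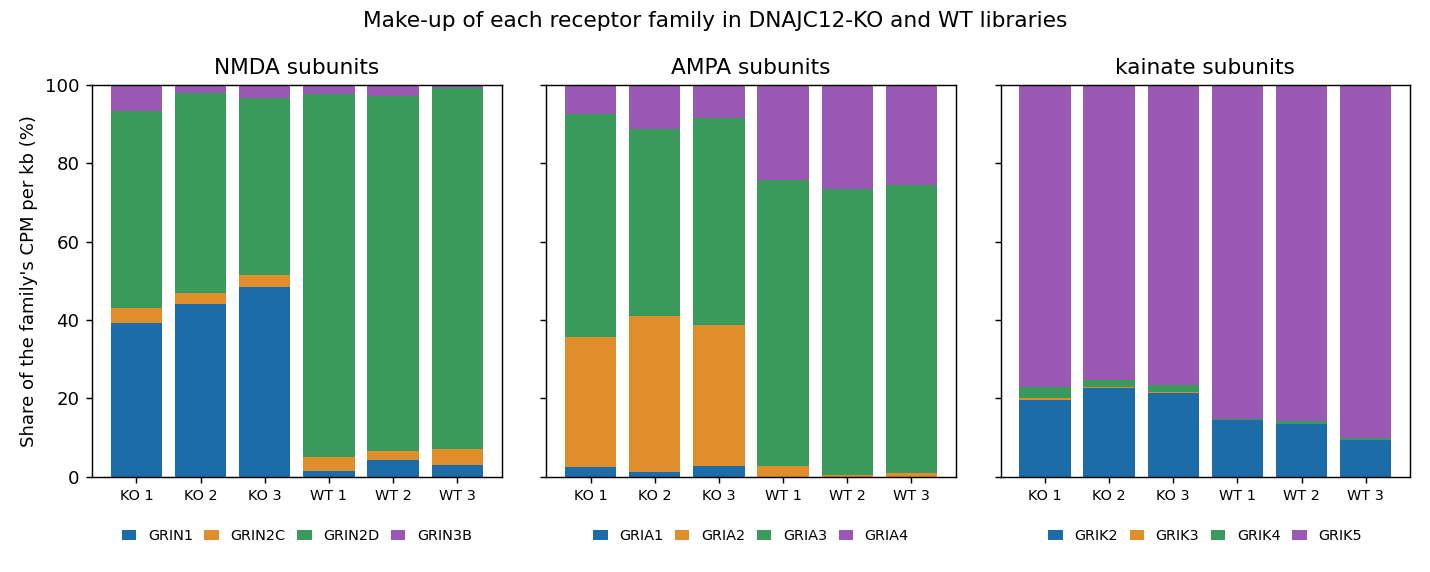
Share of each subunit in the summed CPM per kilobase of its receptor class, for the 3 DNAJC12-KO libraries on the left and the 3 WT libraries on the right of each panel. GRIN1 makes up 39.2% to 48.3% of the NMDA class in DNAJC12-KO and 1.47% to 4.37% in WT, while GRIK5 leads the kainate class in all 6 libraries.

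GRIA2 encodes the AMPA subunit whose edited form makes the channel nearly impermeable to calcium (ENSG00000120251, chr4:157220120-157366075). It had 82, 125 and 103 counts in DNAJC12-KO libraries and 7, 1 and 2 in WT libraries. DNAJC12-KO replicate 1 was the lowest of its group and still far above WT replicate 1, the highest of the WT libraries. The mean level was 5.00 ± 0.937 CPM in DNAJC12-KO and 0.164 ± 0.154 CPM in WT (SD, n = 3 each). The log2 fold change was 4.86 ± 0.46, and 5.92 without WT replicate 1; the WT level rests on 10 counts in all. The ratio of summed counts was 30.0, with an exact 95% interval of 16.1 to 63.3.

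GRIA4, an AMPA subunit with fast kinetics, was lower in DNAJC12-KO (ENSG00000152578, chr11:105609994-105982090). Counts were 18, 35 and 24 in DNAJC12-KO libraries and 64, 72 and 50 in WT libraries, with no overlap. The means were 1.24 ± 0.398 CPM in DNAJC12-KO and 3.10 ± 0.549 CPM in WT (SD, n = 3 each), a log2 fold change of -1.32 ± 0.31. The GRIA2 level per kilobase was 4.46, 3.5 and 4.21 times that of GRIA4 in DNAJC12-KO libraries, against 0.107, 0.0136 and 0.0392 times in WT libraries. The order of the 2 subunits was thus exchanged per kilobase. By TPM over GENCODE 29 transcripts it was not in every library, since GRIA4 had 0.506, 0.985 and 0.531 TPM in DNAJC12-KO and stood above GRIA2 in replicates 1 and 2.

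Among all AMPA transcripts, counted per kilobase, GRIA2 took 33.3%, 39.7% and 36.0% in DNAJC12-KO libraries and 2.61%, 0.36% and 1.0% in WT libraries. GRIA4 took 7.45%, 11.4% and 8.55% in DNAJC12-KO and 24.4%, 26.5% and 25.5% in WT. GRIA3, which is not a member, was the leading AMPA subunit on this scale in both genotypes, with 56.9%, 47.7% and 52.7% in DNAJC12-KO and 73.0%, 73.2% and 73.4% in WT. Summed AMPA levels were 2.23, 2.7 and 2.38 CPM per kilobase in DNAJC12-KO and 2.31, 2.51 and 1.82 in WT, again with overlapping ranges. These shares depend on the lengths used: by the deposited TPM values over GENCODE 29 transcripts, GRIA3 averaged 4.96 TPM in DNAJC12-KO and 8.63 TPM in WT, and GRIA2 had 0.0784, 0.606 and 1.56 TPM in DNAJC12-KO libraries and 0.254, 0 and 0 TPM in WT libraries. On that scale GRIA2 in DNAJC12-KO replicate 1 lay below WT replicate 1, so the genotypes overlapped. GENCODE 29 transcripts held only 25.1% of the GRIA2 table counts in DNAJC12-KO and 36.1% in WT. The coding transcript GRIA2-204, whose pore codon is printed above, was given 0, 39.6 and 0 reads in the DNAJC12-KO libraries. GRIA2-205, annotated as retaining an intron, was given 6.1, 4.9 and 19.9. No single GRIA2 isoform is therefore reported as the source of the difference.

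The GRIA2 promoter is printed because GRIA2 is a textbook target of the silencer REST, which binds the RE1 element, and because its RNA was near 0 in WT. Promoter windows of 300 bases, from 250 before to 50 after an annotated start, came from RefSeq for GRCh38.p14 and matched 8 of the 10 members with 13 windows. The motifs searched on both strands were the GC box GGGCGG, an RE1 left part TTCAGCACC and an RE1 right part GGACAGCG. The window at chr4:157220369-157220668, plus strand, held the RE1 parts, and capitals mark every match of the 3 motifs:
GRIA2: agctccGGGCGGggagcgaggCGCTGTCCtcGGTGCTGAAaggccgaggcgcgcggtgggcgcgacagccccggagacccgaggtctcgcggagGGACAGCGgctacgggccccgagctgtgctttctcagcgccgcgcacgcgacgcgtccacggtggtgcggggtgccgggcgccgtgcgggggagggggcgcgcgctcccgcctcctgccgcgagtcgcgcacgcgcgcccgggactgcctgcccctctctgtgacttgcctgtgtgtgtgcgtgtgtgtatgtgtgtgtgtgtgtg
The left and right RE1 parts lie on the opposite strand with 2 bases between them, and another right part follows on the printed strand. An RE1 left part occurred in 0.376% and a right part in 1.63% of 35116 RefSeq promoter windows, and both in this order within 12 bases of each other in 0.0171%, or 6 windows. The GC box occurred in 45.0%. None of the other 12 member windows held an RE1 left part. GRIN1 and CACNG2 had no window, so their promoters were not searched. These are letter matches in a reference sequence and not measured binding.

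GRIK2 encodes the main kainate subunit able to form channels alone (ENSG00000164418, chr6:101393708-102070083). Its counts were 395, 509 and 454 in DNAJC12-KO libraries and 294, 249 and 160 in WT libraries. It was already well detected in WT, so its difference is of another order than those of GRIN1 and GRIA2. The means were 21.9 ± 2.29 CPM in DNAJC12-KO and 11.7 ± 3.14 CPM in WT (SD, n = 3 each), a log2 fold change of 0.91 ± 0.18. Leaving out each library in turn gave 0.70 to 1.07. The transcript with the most reads, GRIK2-205, was given 224.2, 381.2 and 294.3 reads in DNAJC12-KO and 210.8, 101.3 and 95.4 in WT. Summed over all GENCODE 29 transcripts of GRIK2, the groups overlapped. The sums were 224.2, 416.3 and 337.4 reads in DNAJC12-KO and 249.1, 131.5 and 134.5 in WT. These transcripts held 72.0% of the GRIK2 table counts in DNAJC12-KO and 73.3% in WT. Whether the counts left out account for the overlap was not tested.

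GRIK3, a kainate subunit with low glutamate sensitivity, was close to the detection floor (ENSG00000163873, chr1:36795527-37034515). It had 22, 13 and 7 counts in DNAJC12-KO libraries and 0, 0 and 1 in WT libraries. The ratio of summed counts was 40.7, with an exact 95% interval of 6.91 to 1640, which covers counting error only. The gene failed the filter on low counts and was not fitted. Its RefSeq promoter at chr1:37034466-37034765, minus strand, is shown beside that of GRIA2 as another gene nearly silent in WT, with capitals marking its 3 GC boxes:
GRIK3: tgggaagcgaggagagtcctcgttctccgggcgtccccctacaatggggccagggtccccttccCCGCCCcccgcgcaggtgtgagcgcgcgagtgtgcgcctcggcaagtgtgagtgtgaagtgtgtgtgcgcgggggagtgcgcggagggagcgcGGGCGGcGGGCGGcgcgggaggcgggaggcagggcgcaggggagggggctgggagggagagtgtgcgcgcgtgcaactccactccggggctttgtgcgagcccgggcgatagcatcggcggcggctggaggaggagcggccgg
It held neither RE1 part, which says only that those letters are not in this window.

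GRIK5 encodes a high-affinity kainate subunit and had the highest level per kilobase of the members in every library (ENSG00000105737, chr19:41998324-42070206). It had 1106, 1200 and 1157 counts in DNAJC12-KO libraries and 1228, 1123 and 1083 in WT libraries, so the groups overlapped. The means were 56.0 ± 1.93 CPM in DNAJC12-KO and 57.3 ± 2.05 CPM in WT (SD, n = 3 each), a log2 fold change of -0.03 ± 0.07. The ratio of summed counts was 0.977, with an exact 95% interval of 0.932 to 1.02. GRIK5 overlaps ZNF574, with the same limit on strand as GRIN2D. Within the kainate class, per kilobase, GRIK5 took 77.2%, 75.3% and 76.7% in DNAJC12-KO libraries and 85.2%, 85.7% and 90.1% in WT libraries. GRIK2 took 19.6%, 22.7% and 21.4% in DNAJC12-KO and 14.5%, 13.5% and 9.45% in WT. The ratio of GRIK2 to GRIK5 per kilobase was 0.254, 0.301 and 0.279 in DNAJC12-KO and 0.17, 0.157 and 0.105 in WT, without overlap. By TPM over GENCODE 29 transcripts this ratio did overlap between genotypes. GRIK2 had 3.06 TPM in DNAJC12-KO replicate 1 and 3.65 TPM in WT replicate 1, where GRIK5 had 22.3 and 22.2 TPM.

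CACNG2 was counted in every DNAJC12-KO library and in no WT library (ENSG00000166862, chr22:36560857-36703752). Its counts were 36, 58 and 70 in DNAJC12-KO and 0, 0 and 0 in WT. The mean in DNAJC12-KO was 2.63 ± 0.730 CPM (SD, n = 3). Set against a floor of 3 counts over the 3 WT libraries together, CACNG2 was at least 53.0-fold higher in DNAJC12-KO. Nearly all its reads fell on the transcript CACNG2-201, which was given 36.2, 57 and 70 reads in DNAJC12-KO and 0 in each WT library. The coding end of CACNG2 is shown with those of GRIN2D and GRIA2, because these tails bind PDZ domains of scaffold proteins. Capitals mark the last 4 codons, followed by the stop codon, in GENCODE 29 transcripts:
CACNG2: acagccaaccgccggACCACCCCCGTAtaa
GRIN2D: cacttctctagcctcGAGTCCGAGGTAtga
GRIA2: gtatatggcatcgaaAGTGTTAAAATTtag
CACNG2 and GRIN2D both end on the valine codon GTA, the residue type that the PDZ domains of DLG family scaffolds bind, while GRIA2 ends on the isoleucine codon ATT.

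Ordered by CPM per kilobase in DNAJC12-KO, GRIK5 came first with 16.0, followed by GRIK2 with 4.46. GRIN2D at 1.65, GRIN1 at 1.48, CACNG2 at 1.1 and GRIA2 at 0.889 followed, and each overlapped its neighbour in range. GRIA4 at 0.225 and GRIK3 at 0.0759 were lower, without overlap. In WT the order was GRIK5 at 16.4, GRIN2D at 2.73 and GRIK2 at 2.37 with overlapping ranges, GRIA4 at 0.563, GRIN1 at 0.0814 and GRIA2 at 0.0292 with overlapping ranges, and GRIK3 at 0.00187 and CACNG2 at 0. By TPM over GENCODE 29 transcripts, CACNG2 in DNAJC12-KO averaged 0.652, GRIA4 0.674 and GRIA2 0.748, with overlapping ranges.

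**Figure D3:**
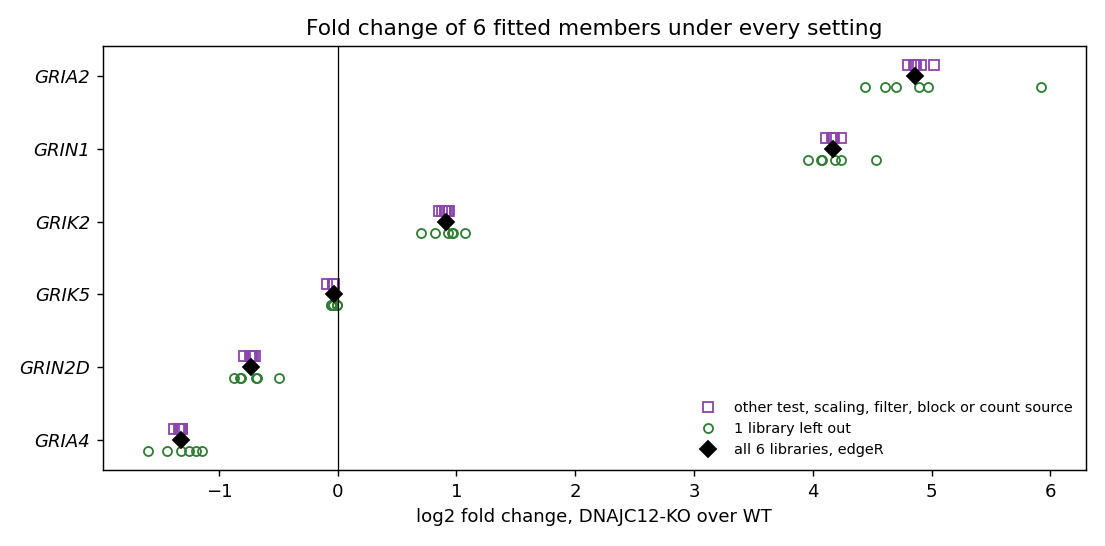
Log2 fold change of DNAJC12-KO over WT for the 6 fitted members other than CACNG2, with the value as reported and the values under every other setting that fitted the gene (GRIA2 has none from transcript-file counts). GRIN1, GRIA2 and GRIK2 stay above 0, GRIN2D and GRIA4 stay below 0, and GRIK5 stays between -0.09 and -0.01.

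The genes whose levels moved most like a member over the 6 libraries were found by Pearson's r of log2 CPM among genes averaging at least 2 CPM. For GRIN1 these were PLXDC2 and SCG5, both with r = 0.999. JPH2 with r = 0.9995 and C6 with r = 0.9992 came first for GRIA2, and PABPC1 with r = 0.9963 and NT5C1A with r = 0.9951 for GRIK2. The 6 points form 2 genotypes, and many genes were alike in this sense: 952 of 13646 genes had r over 0.95 with GRIN1, 627 with GRIA2 and 224 with GRIK2.

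The other glutamate receptor genes were read beside the members, and in them the fit across all genes gives a test. Of 17 such genes, 12 had a row and 7 were tested, of which 4 rose in DNAJC12-KO and 0 fell. In this list 57.1% of tested genes rose, while over all tested genes 14.5% rose and 11.5% fell. GRM2 and GRIK4 passed the filter on low counts through their DNAJC12-KO libraries alone, so the count of 4 is partly set by the filter. GRM8, a presynaptic metabotropic receptor, rose to 9.64 ± 0.592 CPM in DNAJC12-KO, against 0.585 ± 0.109 CPM in WT (SD, n = 3 each; log2 fold change 4.03 ± 0.22, edgeR adjusted p = 3.56e-07). GRM2, of the same inhibitory kind, rose to 2.08 ± 0.343 CPM, against 0.153 ± 0.184 CPM in WT (3.73 ± 0.65, edgeR adjusted p = 0.00163), and the log2 fold change was 3.14 without WT replicate 1 and 5.22 without WT replicate 3. GRM7 had 15.1 ± 1.93 CPM in DNAJC12-KO and 7.65 ± 1.80 CPM in WT (0.99 ± 0.18, edgeR adjusted p = 0.00205). These 3 receptors lower transmitter release in neurons. With genes counted from the transcript files, the GRM8 log2 fold change was 4.62.

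GRIK4, the other high-affinity kainate subunit, rose to 2.49 ± 0.587 CPM in DNAJC12-KO, against 0.570 ± 0.256 CPM in WT (2.12 ± 0.39, edgeR adjusted p = 0.00244). GRIA3 did not pass, with 6.57 ± 0.0812 CPM in DNAJC12-KO and 8.37 ± 1.33 CPM in WT (-0.35 ± 0.16, edgeR adjusted p = 0.135). GRID1, a delta receptor, had 84, 65 and 96 counts in DNAJC12-KO and 63, 15 and 18 in WT, with WT replicate 1 near the DNAJC12-KO values. It missed the threshold with a log2 fold change of 1.32 ± 0.46 (edgeR adjusted p = 0.0572), and passed at 2.23 without that library (edgeR adjusted p = 0.00117). GRIA1, the AMPA subunit of hippocampal plasticity, had 6, 4 and 8 counts in DNAJC12-KO and 0 in each WT library, at least 5.81-fold higher. Ratios of summed counts of 3 more genes below the filter, with exact 95% intervals, were 2.26 for GRIN3B (1.11 to 4.88), 1.12 for GRIN2C (0.635 to 2.0) and 1.03 for GRM5 (0.478 to 2.24). These intervals cover counting error only, and in all 3 genes the genotypes overlapped. GRIN3B had 16, 4 and 8 counts in DNAJC12-KO libraries and 6, 5 and 1 in WT libraries. GRIN2B, GRIK1, GRM3, GRM4 and GRM6 had no row.

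Genes for auxiliary subunits and receptor assembly moved in both directions. Of 34 listed, 23 were tested, 10 rose and 2 fell, with a median log2 fold change of 0.33, against 0.0 over all tested genes. In this list 43.5% rose and 8.7% fell, against 14.5% and 11.5% of all tested genes. Leaving out DNAJC12-KO replicate 3 or any WT replicate left 1 that fell. NPTX2, a secreted pentraxin that clusters AMPA receptors, fell to 72.8 CPM in DNAJC12-KO, against 157 CPM in WT (-1.11 ± 0.07, edgeR adjusted p = 1.06e-06). OLFM1, a secreted protein found with AMPA receptors, rose to 22.4 CPM, against 7.91 CPM in WT (1.50 ± 0.12, edgeR adjusted p = 8.3e-06). CACNG4, a relative of CACNG2 with the same kind of role, was far more abundant than it and rose to 406 ± 11.6 CPM, against 300 ± 9.51 CPM in WT (SD, n = 3 each; 0.44 ± 0.06, edgeR adjusted p = 2.38e-04). FRRS1L, which takes part in AMPA receptor assembly in the endoplasmic reticulum, rose to 32.4 CPM, against 19.4 CPM in WT (0.74 ± 0.10, edgeR adjusted p = 3.91e-04). CACNG5 and CACNG7, named after their values were seen, also rose (2.93 ± 0.57 and 0.34, edgeR adjusted p = 0.00325 and 0.0151). With 4, 7 and 1 counts in WT, CACNG5 passed the filter on low counts through its DNAJC12-KO libraries alone. The same held for SHISA7, with 12, 5 and 7 counts in WT, and for CBLN1, with 18, 9 and 17. The count of 10 that rose is thus partly set by the filter. The CACNG5 value was 3.59 without WT replicate 2, and CACNG7 lost its call without that library (edgeR adjusted p = 0.0819) or without DNAJC12-KO replicate 3 (edgeR adjusted p = 0.0761). CACNG8, of the same family, did not pass (0.33 ± 0.13, edgeR adjusted p = 0.0958).

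Among postsynaptic scaffold and kinase genes, 33 of 36 were tested, 10 rose and 3 fell, with a median log2 fold change of 0.14. In this list 30.3% rose and 9.09% fell, against 14.5% and 11.5% of all tested genes. DLG2, a PDZ scaffold that binds NMDA receptor tails and CACNG2, rose to 23.3 ± 0.469 CPM in DNAJC12-KO, against 2.48 ± 0.395 CPM in WT (SD, n = 3 each; 3.24 ± 0.14, edgeR adjusted p = 7.99e-08). SHANK1, a deeper scaffold of the same density, rose to 12.6 ± 1.88 CPM, against 0.423 ± 0.284 CPM in WT (4.90 ± 0.35, edgeR adjusted p = 2.4e-06). With 2, 11 and 12 counts in WT, SHANK1 passed the filter on low counts through its DNAJC12-KO libraries alone. The same held for SHANK2 and DLGAP3, so the count of 10 that rose is partly set by the filter. CAMK2D, a calcium-dependent kinase, rose to 109 CPM, against 39.3 CPM in WT (1.46 ± 0.08, edgeR adjusted p = 4.56e-07). KALRN, an exchange factor for Rac at spines, rose to 51.7 CPM, against 19.3 CPM in WT (1.42 ± 0.11, edgeR adjusted p = 4.46e-06), but missed the threshold when genes were counted from the transcript files (edgeR adjusted p = 0.458). CAMK2A, the kinase isoform of mature excitatory neurons, was named after its values were seen. It fell to 0.289 CPM, against 2.68 CPM in WT (-3.18 ± 0.39, edgeR adjusted p = 1.33e-04). With 5, 4 and 9 counts in DNAJC12-KO, CAMK2A passed the filter through its WT libraries alone. On transcript-file counts the log2 fold changes were 4.05 for DLG2 and -4.03 for CAMK2A.

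**Figure D4:**
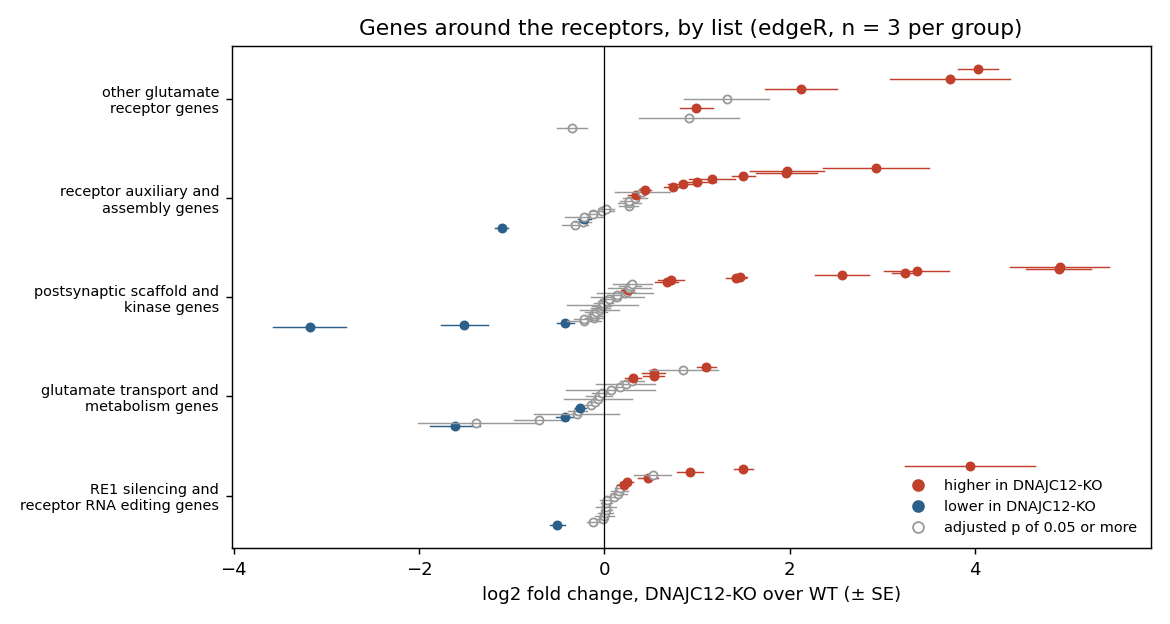
Log2 fold change of DNAJC12-KO over WT for every tested gene of the 5 lists around the members, with its SE, filled for genes past the adjusted threshold. The highest points are SHANK2, SHANK1 and GRM8.

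For glutamate transport and metabolism, 21 of 29 genes were tested, 4 rose and 3 fell, with a median log2 fold change of -0.06. In this list 19.0% rose and 14.3% fell, near the 14.5% and 11.5% of all tested genes. SLC38A2, a glutamine transporter, rose by 1.10 ± 0.10 (edgeR adjusted p = 1.8e-05), and SLC7A11, the cystine and glutamate exchanger, fell by 1.61 ± 0.27 (edgeR adjusted p = 0.00124). SLC38A1, another glutamine transporter, rose (0.53 ± 0.11, edgeR adjusted p = 0.00413), and GOT1, the cytosolic aspartate aminotransferase, fell (-0.43 ± 0.09, edgeR adjusted p = 0.00406). The list on RE1 silencing and receptor RNA editing had 20 of 22 genes tested, of which 6 rose and 1 fell, with a median of 0.12. In this list 30.0% rose and 5.0% fell, against 14.5% and 11.5% of all tested genes. Only 3 of its genes rose without WT replicate 2 or without WT replicate 3. ADARB1, the enzyme that edits the GRIA2 pore codon, rose to 39.7 ± 2.48 CPM in DNAJC12-KO, against 14.0 ± 1.12 CPM in WT (SD, n = 3 each; 1.50 ± 0.10, edgeR adjusted p = 1.8e-06). REST, the RE1-binding silencer, rose to 40.6 ± 6.03 CPM, against 21.5 ± 3.30 CPM in WT (0.92 ± 0.14, edgeR adjusted p = 6.2e-04). Its part in the GRIA2 values was not tested. ADARB2, an editing enzyme relative without known activity, rose at a low level (3.94 ± 0.70, edgeR adjusted p = 0.00178), and the REST cofactor RCOR2 fell (-0.51 ± 0.08, edgeR adjusted p = 5.73e-04). With 1, 1 and 0 counts in WT, ADARB2 passed the filter on low counts through its DNAJC12-KO libraries alone. The count of 6 that rose is thus partly set by the filter. ADAR had 511 ± 13.3 CPM in DNAJC12-KO and 503 ± 21.6 CPM in WT (edgeR adjusted p = 0.831).

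The libraries held 19845788 to 21869659 counts in DNAJC12-KO and 19321842 to 20071795 in WT, so 3 counts were 0.137 to 0.155 CPM. DNAJC12 itself had 116, 122 and 104 counts in DNAJC12-KO libraries and 476, 421 and 392 in WT libraries, so its RNA was reduced and not absent (edgeR adjusted p = 1.25e-06). Of 12 sympathoadrenal markers, 11 had a row, with TH the exception, and their summed level was 4300.0 to 4390.0 CPM in DNAJC12-KO and 4300.0 to 4430.0 CPM in WT. Of 7 markers of cortical glutamatergic neurons, 3 had a row and their sum was 1.59 to 1.83 CPM in DNAJC12-KO and 1.28 to 2.32 CPM in WT; NEUROD2, NEUROD6, EMX1 and FEZF2 had none. Astrocyte markers summed to 49.9 to 63.7 CPM in DNAJC12-KO and 57.4 to 60.7 CPM in WT, from 3 of 5 genes with GFAP and AQP4 lacking a row. Sums for fibroblast markers (6 of 6) were 489.0 to 597.0 CPM in DNAJC12-KO and 525.0 to 567.0 CPM in WT, but 3 of the 6 rose and 2 fell. Among them PDGFRA averaged 86.5 CPM in DNAJC12-KO and 27.6 CPM in WT, and DCN 20.7 CPM in DNAJC12-KO and 159.0 CPM in WT. Immune markers (3 of 5, CSF1R and CD3E without a row) summed to 1.43 to 1.96 CPM in DNAJC12-KO and 1.52 to 2.61 CPM in WT, and endothelial markers (2 of 5, PECAM1, CDH5 and KDR without a row) to 0.192 to 0.815 CPM in DNAJC12-KO and 0.153 to 0.242 CPM in WT. Those of oligodendrocyte and Schwann cells (3 of 5, SOX10 and MOG without a row) were 6.02 to 6.21 CPM in DNAJC12-KO and 4.49 to 5.28 CPM in WT. Epithelial markers (3 of 5, KRT5 and KRT14 without a row) summed to 4.57 to 5.13 CPM in DNAJC12-KO and 11.5 to 13.3 CPM in WT. The last 2 sums did not overlap between genotypes. The lower epithelial sum came from CLDN4 alone, with a mean of 3.32 CPM in DNAJC12-KO and 10.9 CPM in WT. EPCAM averaged 1.36 CPM in DNAJC12-KO and 1.14 CPM in WT, and CDH1 0.16 and 0.034 CPM. The part of these markers, fibroblast genes included, in the receptor values was not tested.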

How the data were processed

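RNA was extracted with TRIzol, depleted of ribosomal RNA and made into stranded libraries, per the labels' protocols. The submitters' processing notes name cutadapt 3.5, Salmon 1.10.0, DESeq2 1.42.1 and GRCh38.p14; annotation release and strand setting are not given in the sources used here. The deposited gene table holds counts per gene, estimated reads rounded to whole numbers (from the values) and not normalized; 403 repeated rows were removed. Per the file headers, the transcript files hold estimated counts and TPM for 251955 transcripts, of which GENCODE 29 names 201667 and 94.2% to 94.6% of the reads.

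Genotypes were compared with edgeR 4.0.16 in R 4.3.3: filterByExpr, TMM, quasi-likelihood F-test, two-sided, Benjamini-Hochberg adjustment over 16403 genes, threshold 0.05. The script was tested on simulated data. Ratios carry exact binomial intervals (95%) over summed counts; these and the floor of 3 counts cover counting error only. Replicates of a genotype differed beyond sampling noise (chi-square per gene 4.37 to 22.7). Alternatives were DESeq2 1.42.0, limma-voom (limma 3.58.1), other scalings and filters, a replicate block, transcript-file counts and each library left out.

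The members and lists were chosen with earlier results of these data known. Named genes are all members, DNAJC12, every other glutamate receptor gene with a row, the 4 smallest adjusted p of each list, and ADARB1, ADAR and REST. Some genes named by this rule are not reported here; tallies over the lists include them. Reads shared by similar transcripts or overlapping genes are uncertain.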

Additional observations from a re-analysis of the deposited data

How the results depend on the processing

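Fold changes of the fitted members kept their sign in each setting that fitted them; GRIA2 was not fitted with transcript-file counts. Without overlap 5 members were higher and 2 lower, but 4 were higher with at least 1 CPM in 3 libraries, which removes GRIK3, and 4 with transcript-file counts, where GRIK2 overlapped. With libraries left out in turn, log2 fold changes ran from 3.96 to 4.53 for GRIN1, 4.44 to 5.92 for GRIA2, -0.87 to -0.49 for GRIN2D and -1.60 to -1.14 for GRIA4. The number of genes called lower in DNAJC12-KO ran from 1208 to 2150, auxiliary genes called lower from 1 to 3, and silencing and editing genes called higher from 3 to 7. ADAR had -0.03 with library size alone and ran from -0.02 without WT replicate 3 to 0.04 without DNAJC12-KO replicate 2, and NOVA2, a called splicing factor of the editing list, had -1.09 with transcript-file counts (adjusted p = 0.675); the cause was not tested. Same-numbered replicates did not deviate together over the tested genes as a whole (correlations 0.0462, -0.0347 and -0.0627). Such a correlation cannot exclude a pairing that touches only some genes. A replicate block called 2541 genes higher and 2024 lower, against 2383 and 1887 without it. GRID1 passed with the block (1.52, edgeR adjusted p = 0.00914). Depth limits GRIA2, GRIK3 and CACNG2, which had 10, 1 and 0 counts over the WT libraries.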
